A study of Mus musculus with 2 samples.

Results

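The potassium channel genes of the mouse retina were taken as the 91 gene symbols, of 25778 in the count table, that start with Kcn, apart from a few symbols left out by name or by the ending os. Of these, 89 encode channel subunits or the proteins that bind them, and 2 (Kcnmb4os1 and Kcnmb4os2) are RNAs antisense to Kcnmb4. The rule reads gene symbols, and the family was picked with earlier results of these data known. Single cells of the retina had been sequenced at 30 days of age in 1 library per genotype, each from 1 mouse. The Ptbp1-Ctrl library came from a Chx10-Cre mouse with unmodified Ptbp1, and the Ptbp1-KO library from a Chx10-Cre;Ptbp1lox/lox mouse, in which lox sites flank the promoter and first exon of Ptbp1. The product of Ptbp1 binds RNA and keeps neuronal exons out of transcripts. Both mice carried Chx10-Cre, a transgene that makes Cre recombinase fused to GFP in retinal progenitors, so that the deletion was inherited by the neurons and Müller glia and was not limited to any of them.

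Potassium channels set the resting potential of a cell, repolarise it after excitation and shape how long a signal lasts. Voltage-gated channels are tetramers of alpha subunits, some of which are electrically silent and work only inside a tetramer with an active subunit, and auxiliary proteins tune their gating and transport. In the retina, photoreceptors rely on a non-inactivating voltage-gated current to shape the light response, bipolar and amacrine cells use calcium-activated and A-type channels to time their output, and Müller glia take up the potassium that active neurons release.

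The libraries held 16421 (Ptbp1-Ctrl) and 14522 (Ptbp1-KO) cells with 32758836 and 35328593 transcript counts (unique molecular identifiers, UMIs), at a median of 1442 and 1740 per cell. The cell types and clusters are those deposited with the counts. Ptbp1 itself, the deleted gene, went from 255 to 4 UMIs in rods, from 204 to 1 in bipolar cells and from 294 to 6 in Müller glia. The study's methods name female mice, whereas the libraries held 16275 and 19242 UMIs of 4 Y-linked genes and 5 and 6 UMIs of Xist. The libraries shared 63 cell barcodes, 24 of them with the same cell type. Rod marker RNA was found in the other types, at 49.6% and 51.1% (Ptbp1-Ctrl and Ptbp1-KO) of its whole-library level in cones, 29.5% and 27.8% in bipolar cells, 33.5% and 34.5% in amacrine cells and 32.1% and 27.5% in Müller glia. Retinal ganglion cells held 18296 and 22482 UMIs of the 5 rod markers per 1000000 UMIs, against 28665 and 25583 in rods. Müller glia marker RNA stood at 4.68% and 5.28% in rods. These shares times a gene's whole-library level give the free-RNA level quoted below. It is what RNA from lysed cells could add at that rate, and its part in any result was not tested. Outside rods the rate is that of rod markers, and it can overstate other genes. In Ptbp1-Ctrl cones Kcnb2 was measured at 5.16 CPM beside a free-RNA level of 181 CPM, and Kcnip4 at 14.3 CPM beside 288 CPM. In Ptbp1-Ctrl Müller glia Kcnb2 was at 45.0 CPM beside 117 CPM.

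Levels are UMIs per 1000000 UMIs of the cell type and library (CPM). They come from the 3′ end of transcripts and are not divided by length, so a level is compared across cell types or libraries within a gene and not between genes. With 1 library per genotype no test between genotypes was possible, and neither a difference between mice nor one between library preparations can be told apart from the genotype. The 95% intervals given (exact Poisson for a level, exact conditional binomial for a log2 ratio, Clopper-Pearson for a share of cells) cover counting error only. "Past 1.5-fold" below is a rule of size, applied to genes with at least 100 UMIs over both libraries in a cell type. Of the 91 members, 55 had at least 100 UMIs over all cells, 36 had fewer, from 2 UMIs of Kcnk18 to 97 of Kcnq1, and 0 had no UMI. At the level of a single cell type, 49 passed the minimum in at least 1 of 5 types and 7 in all 5.

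Each cell type had its own leading potassium channel transcripts, and for most members the leading type was the same in both libraries. Cell types and clusters were made from the same expression values, so the levels by type and cluster are descriptions. Of the 55 members with at least 100 UMIs, 49 had their highest level in the same type in both libraries, 26 of them in amacrine cells, 13 in bipolar cells, 4 in Müller glia, 3 in rods and 3 in cones. The same counts over all genes are not given here, so whether the members differ from other genes in this was not tested. Summed over members, amacrine cells held 8580 CPM (Ptbp1-Ctrl) and 8600 CPM (Ptbp1-KO), and bipolar cells 7784 and 7611 CPM. Cones held 2451 and 2512 CPM, rods 1711 and 1632 CPM and Müller glia 1124 and 1066 CPM. These sums leave out the symbols excluded by name, so they do not rank the types by all potassium channel RNA. Retinal ganglion cells (RGC, 124 and 97 cells) stood at 3196 and 3251 CPM, and horizontal cells (HC, 17 and 7 cells) at 2862 and 3384 CPM.

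**Figure D1:**
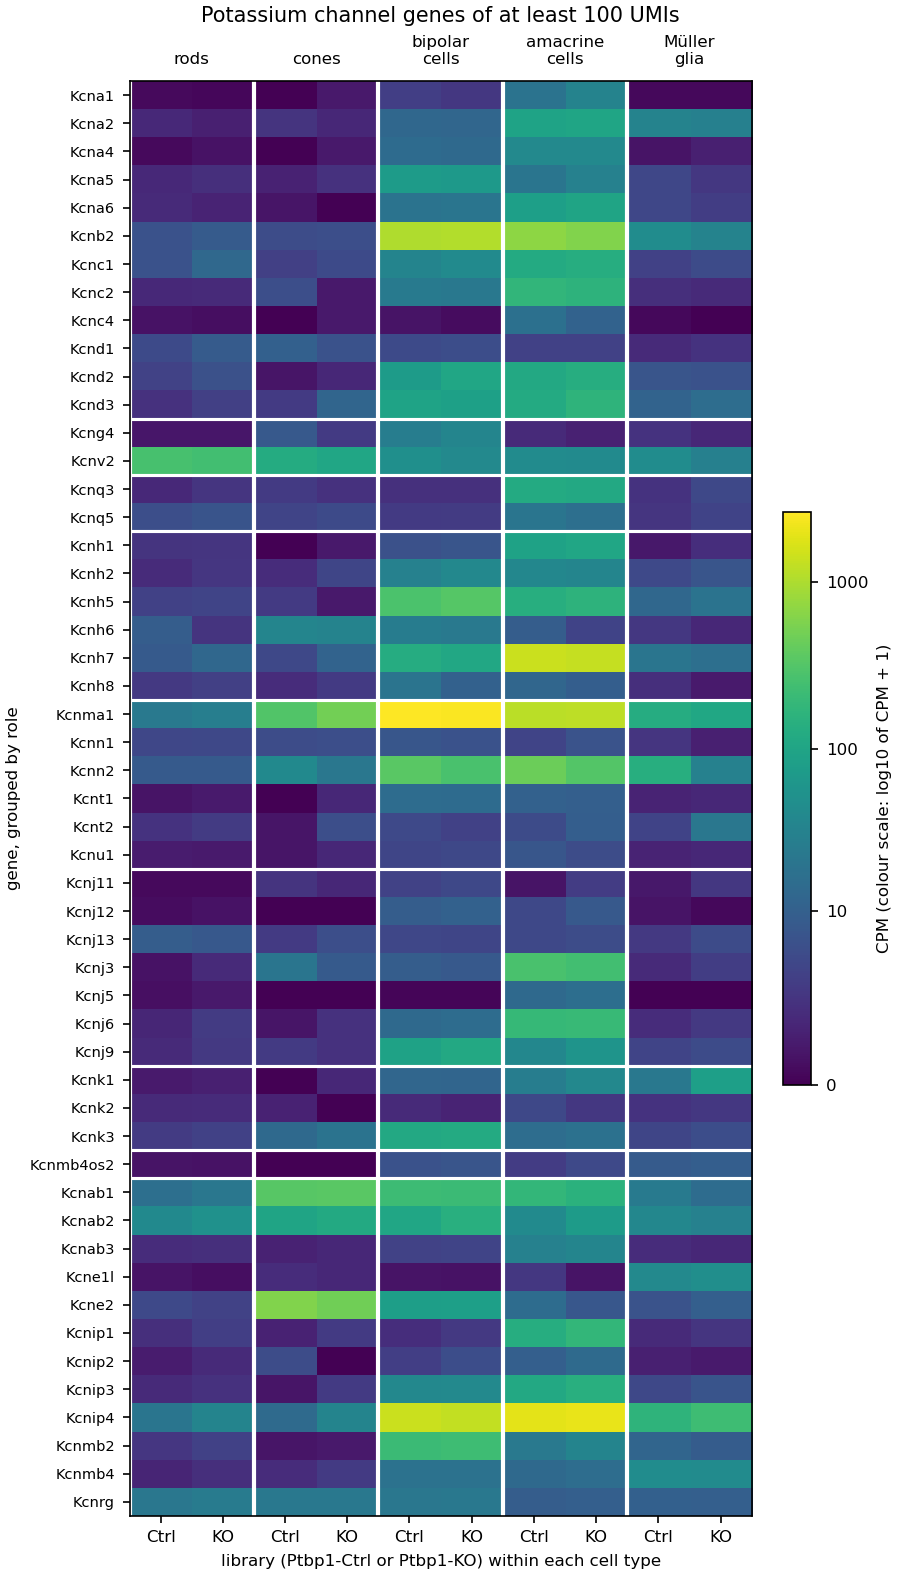
Level (CPM, colour on a log10 scale of CPM + 1) of 51 potassium channel genes with at least 100 UMIs, in 5 cell types and 2 libraries, with genes grouped by role. Read along a row, the Ptbp1-Ctrl and Ptbp1-KO columns of a type are alike for most genes, with the Müller glia columns of Kcnk1, Kcnt2 and Kcnn2 among the exceptions.

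In rods, Kcnv2, a silent subunit mutated in a human cone dystrophy with enlarged rod responses, stood at 265 and 245 CPM, 2.09 and 2.35 times the level in cones (127 and 105 CPM). Its order was rods, then cones, then the other 3 types in both libraries. Kcnj13, an inward rectifier, was measured at 9.13 and 7.66 CPM in rods, 1.98 and 1.36 times the next type. Its annotation lies within Gigyf2 on the opposite strand, and whether reads were counted by strand is not given in the sources used here. When cells were thinned to 1000 UMIs the order of Kcnj13 turned, with rods below another type by 0.21 on the log2 scale (-0.21).

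In cones, Kcne2, a single-span auxiliary subunit that alters the gating of several alpha subunits, stood at 587 and 473 CPM, 7.12 and 5.62 times its level in bipolar cells, the next type (82.5 and 84.1 CPM). Kcnab1, a cytoplasmic beta subunit of the Kv1 channels, stood at 336 and 356 CPM, 1.54 and 1.65 times the level in bipolar cells (218 and 217 CPM). Kcnh6, a member of the ERG family of slowly closing channels, stood at 35.5 and 33.0 CPM against 26.8 and 23.0 CPM in bipolar cells, a ratio of 1.33 and 1.43. The intervals of Kcnh6 in these types overlapped, from 27.2 to 45.5 CPM in Ptbp1-Ctrl cones against 23.6 to 30.2 CPM in bipolar cells.

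Bipolar cells had the highest level of Kcnma1, Kcnmb2, Kcnk3, Kcng4 and Kcna5 in both libraries. Kcnma1, the alpha subunit of the large-conductance calcium-activated (BK) channel, stood at 2650 and 2550 CPM, 2.27 and 2.12 times its level in amacrine cells (1169 and 1202 CPM). Kcnmb2, a BK beta subunit that makes the channel inactivate, stood at 216 and 229 CPM, 9.19 and 6.64 times the next type. Kcnk3, an acid-sensitive leak channel, was at 114 and 121 CPM, 7.18 and 6.38 times the next type. The silent subunit Kcng4 was at 26.9 and 35.2 CPM, 3.35 and 12.5 times the next type, and Kcna5, a delayed rectifier, at 75.0 and 69.6 CPM, 3.67 and 2.24 times the next type.

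Amacrine cells held the members with the steepest differences to other types. Kcnip1, a calcium-sensing partner of A-type channels, stood at 135 and 182 CPM there, 70.4 and 53.9 times the next type. Kcnq3, a subunit of the M-current that restrains firing, stood at 122 and 117 CPM, 42.6 and 26.0 times the next type. Kcnh1, of the EAG family, was at 92.5 and 106 CPM, 15.1 and 15.1 times the next type. The G-protein-gated inward rectifiers Kcnj3 (277 and 244 CPM, 13.4 and 28.9 times the next type) and Kcnj6 (193 and 201 CPM, 13.8 and 13.3 times the next type) shared this order.

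Few members, a list that leaves out some symbols by name, were enriched in Müller glia. Kcne1l, an auxiliary subunit of the Kcne family, stood at 40.3 and 48.4 CPM, 15.8 and 34.5 times the next type, and its Ptbp1-KO ratio rests on small counts elsewhere. Kcnmb4, a BK beta subunit, was at 44.9 and 44.2 CPM, 2.40 and 2.41 times the next type, and 2 antisense RNAs overlap it.

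The rarer types had few cells and wide intervals. In RGC, Kcnc2, a fast channel of high-frequency firing, held 44 and 48 UMIs (207 and 261 CPM), 1.15 and 1.63 times the highest of the 5 larger types. Kcna2, a low-threshold channel of axons, held 24 and 35 UMIs (113 and 191 CPM), 1.19 and 1.87 times that level. Kcnc1 (117 and 131 CPM) was not above the highest of the 5 types in either library. The part of the rod marker RNA in RGC, given above, in these levels was not tested. In HC, Kcnq5, an M-current subunit, held 34 and 5 UMIs (307 and 117 CPM), against at most 20.4 and 16.6 CPM in the 5 larger types, and Kcnj3 held 49 and 32 UMIs (442 and 747 CPM), 1.60 and 3.06 times it. Kcnn2, Kcnab1 and Kcnh7 in HC were below the highest of the 5 types.

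Within bipolar cells, the 10 deposited clusters differed in their channel genes, and the genes named here are those above every other cluster in both libraries. Cluster 18, the cluster with the highest level of the OFF bipolar marker Grik1 (10235 and 10232 CPM), was led by Kcnip4, a partner of A-type channels, at 12348 and 12611 CPM, 4.39 and 6.11 times the next cluster. Kcnh8, of the ELK family, was at 174 and 128 CPM in this cluster, 4.84 and 6.64 times the next. Cluster 9, with Grik1 at 3605 and 3086 CPM and Tacr3 at 347 and 391 CPM, was led by the ERG-family gene Kcnh7 at 630 and 593 CPM, 3.19 and 1.85 times the next cluster.

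Among clusters with high Grm6 or Isl1, markers of ON bipolar cells, cluster 12 held Kcng4 at 152 and 174 CPM and the A-type channel Kcnd2 at 501 and 607 CPM, which are 3.32 and 2.68 times and 1.35 and 1.51 times the next cluster. Cluster 19 held Kcnab1 at 1055 and 1205 CPM, 2.66 and 2.99 times the next, together with Kcnma1 at 4021 and 4090 CPM. Cluster 11 held Kcna4, an A-type Kv1 channel, at 66.6 and 79.4 CPM, 2.31 and 2.78 times the next, and Kcnn2 at 479 and 427 CPM. In cluster 13, Kcnmb2 was at 546 and 617 CPM, 1.43 and 1.86 times the next cluster, whereas cluster 19 held 3.83 and 1.38 CPM of it.

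The clusters with the highest Prkca, a rod bipolar marker, were 5 (7011 and 6644 CPM) and 10 (8030 and 8053 CPM). Cluster 5 led for Kcnab2, a beta subunit of Kv1 channels, at 158 and 231 CPM, and cluster 10 for Kcnv2 at 104 and 82.7 CPM and for Kcnrg, a soluble protein that hinders channel assembly, at 40.9 and 42.1 CPM. Cluster 10 also held more rod RNA than the other clusters apart from cluster 20 in Ptbp1-KO, with the rod transducin gene Gnat1 at 1610 and 1498 CPM against 853 and 760 CPM in cluster 5. Its part in the Kcnv2 level was not tested. Cluster 21 led for Kcne2 at 313 and 254 CPM, 1.69 and 1.26 times the next cluster.

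The 3 amacrine clusters were separated further. Cluster 6, which held Gad1 at 479 and 536 CPM, had Kcnip1 at 306 and 363 CPM and the A-type channel Kcnd3 at 273 and 330 CPM, with at most 4.48 CPM of Kcnip1 and 11.5 CPM of Kcnd3 in the other clusters. Cluster 14, with the glycinergic marker Ebf3 at 610 and 737 CPM, had Kcnb2, a delayed rectifier, at 1470 and 1665 CPM, 3.81 and 4.97 times the next cluster, and Kcnj3 at 475 and 477 CPM. Cluster 15, with the AII amacrine markers Gjd2 at 608 and 685 CPM and Dab1 at 3835 and 3702 CPM, had Kcnma1 at 3478 and 3476 CPM, 6.40 and 7.60 times the next cluster, and Kcnq3 at 426 and 368 CPM, 8.40 and 10.4 times the next. Kcnma1 in this cluster was thus at a level like that of bipolar cell clusters, while Kcnq3 stood at 1.94 and 1.95 CPM in bipolar cells.

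**Figure D2:**
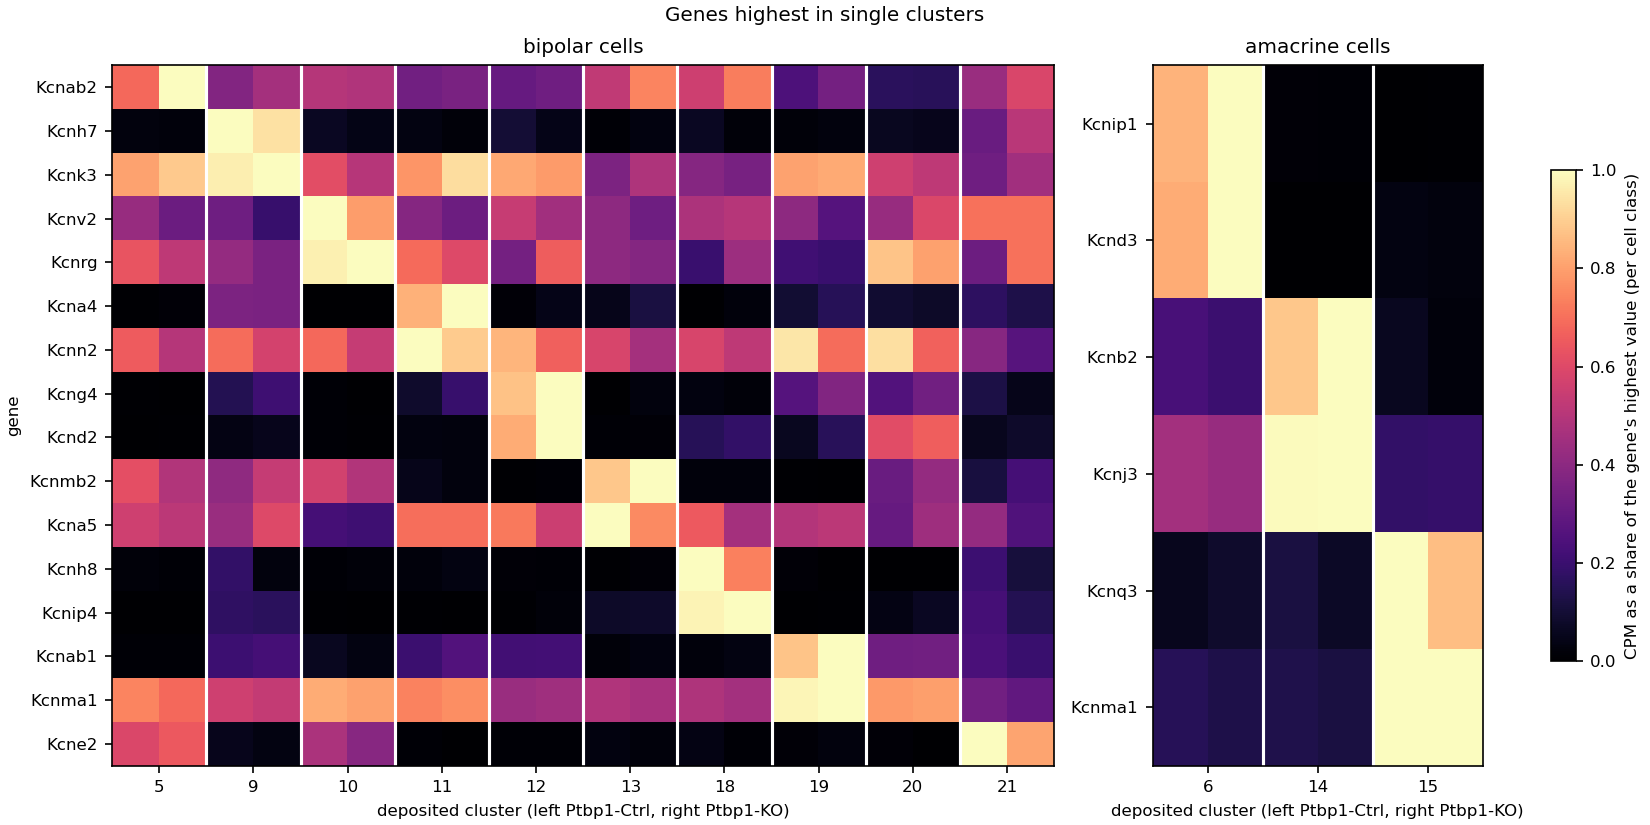
Level of the genes named by cluster, as a share of each gene's highest CPM within bipolar cells (left) or amacrine cells (right), by deposited cluster, with Ptbp1-Ctrl left and Ptbp1-KO right in each pair of columns. In amacrine cells Kcnip1 and Kcnd3 were highest in cluster 6, Kcnb2 and Kcnj3 in cluster 14, and Kcnq3 and Kcnma1 in cluster 15, in both libraries.

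The comparison of genotypes asks which of these genes changed when Ptbp1 was deleted. Müller glia, which held the most Ptbp1 in Ptbp1-Ctrl (49.8 CPM), had the largest differences of the 5 types in either direction. Of 20 members with at least 100 UMIs there, 2 were past 1.5-fold higher in Ptbp1-KO, against 3.06% of all 10367 genes under the same rule, and 3 were past 1.5-fold lower, against 1.90%. Kcnt2 (2.50 on the log2 scale) and Kcnk1 (1.94) were higher, and Kcnn2 (-2.17) and Kcnab1 (-0.69) were among the lower members. The median over the 20 members was -0.18, beside -0.01 over all genes.

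Kcnk1 encodes a tandem-pore leak channel. In Müller glia it held 131 UMIs in the control and 433 in the mutant library, that is 22.2 CPM (18.6 to 26.3) and 85.1 CPM (77.3 to 93.5), and the log2 ratio was 1.94 (1.66 to 2.23). The free-RNA level was 3.17 and 5.70 CPM. The intervals did not overlap, and in Ptbp1-KO the order across types changed, with Müller glia above amacrine cells (39.1 CPM) where in Ptbp1-Ctrl they were beside them (27.1 CPM). After thinning to 1000 UMIs per cell, 37 of 1663 Müller glia in Ptbp1-Ctrl (2.22%, 1.57 to 3.05) and 99 of 1173 in Ptbp1-KO (8.44%, 6.91 to 10.2) held a Kcnk1 UMI. In rods, where the gene was near 0, the shares were 0.0678% and 0.146% at the same depth. Without thinning the Müller glia shares were 6.69% and 28.8%. The log2 ratio stood between 1.88 and 1.98 under the 7 alternative settings. Over all UMIs the log2 ratio was 0.53 (0.07 to 1.01) in amacrine cells and -0.04 (-0.42 to 0.33) in bipolar cells. The amacrine value was 1.56 after thinning to 1000 UMIs, near that of Müller glia. A Kcnk1 UMI was then held by 9 of 625 cells of Ptbp1-Ctrl (1.44%, 0.661 to 2.72) and 36 of 892 of Ptbp1-KO (4.04%, 2.84 to 5.54). Thinning also left out 51 and 53 amacrine cells, and the cause of the move was not tested. Without thinning these shares were 6.95% and 14.2%. In bipolar cells the thinned shares were 1.56% and 1.36%, and free-RNA subtraction moved the ratio to -0.64. In rods Kcnk1 held only 10 and 15 UMIs, and in cones 0 and 2.

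Kcnt2 encodes a sodium-activated channel. It held 23 and 112 UMIs in Müller glia, 3.89 CPM (2.47 to 5.84) and 22.0 CPM (18.1 to 26.5), with a log2 ratio of 2.50 (1.84 to 3.21) and a free-RNA level of 1.07 and 1.84 CPM. In Ptbp1-Ctrl the Müller glia level was beside those of bipolar cells (4.70 CPM) and amacrine cells (5.11 CPM), and in Ptbp1-KO it was above all 4 other types, of which amacrine cells (9.59 CPM) came next. A UMI of Kcnt2 was found in 7 of 1663 and 28 of 1173 thinned cells (0.421% and 2.39%), against 0.186% and 0.259% of rods. In the other types Kcnt2 stayed under 100 UMIs and no ratio is drawn from it.

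Kcnk1 (chromosome 8, 125995170 to 126030685, plus strand) and Kcnt2 (chromosome 1, 140246158 to 140612067, plus strand, GRCm38) were the 2 members higher in Ptbp1-KO Müller glia. The 250 bases upstream of their RefSeq start are shown because both genes were higher in that cell type. Capitals mark TTGGC or its reverse complement GCCAA, an arm of the palindrome bound by nuclear factor I proteins, a family used by Müller glia. The sequences are from RefSeq on GRCm38.p6, plus strand, 5′ to 3′, at chr8:125994852-125995101 and chr1:140245468-140245717.
Kcnk1: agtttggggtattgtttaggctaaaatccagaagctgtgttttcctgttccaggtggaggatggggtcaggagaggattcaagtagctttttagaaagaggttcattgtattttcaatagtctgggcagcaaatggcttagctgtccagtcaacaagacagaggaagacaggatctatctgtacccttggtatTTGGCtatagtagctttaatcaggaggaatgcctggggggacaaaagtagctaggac
Kcnt2: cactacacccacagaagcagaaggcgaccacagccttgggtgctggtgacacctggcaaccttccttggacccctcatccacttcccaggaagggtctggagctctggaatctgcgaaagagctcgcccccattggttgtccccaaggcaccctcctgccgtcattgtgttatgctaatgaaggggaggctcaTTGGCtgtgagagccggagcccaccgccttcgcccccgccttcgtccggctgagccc
Each window held 1 match, and at least 1 match was held by 41.5% of 32851 such windows over all genes and 40.4% of the 94 windows of the 69 members found in the table. A match at this rate is a description of the letters only. Both genes have a gene annotated on the opposite strand, Gm45875 for Kcnk1 and 4930590L20Rik for Kcnt2, so that reads from either strand could not be separated where counting ignored strand.

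Kcnn2, a small-conductance calcium-activated channel, was the member with the largest drop. Müller glia of the control held 828 UMIs and those of the mutant 158, 140 CPM (131 to 150) and 31.1 CPM (26.4 to 36.3), and the log2 ratio was -2.17 (-2.43 to -1.93). The free-RNA level was 52.5 CPM in Ptbp1-Ctrl, under the measured one, and 33.9 CPM in Ptbp1-KO, at which the measured level stood. The share of thinned Müller glia with a Kcnn2 UMI was 12.7% (212 of 1663) and 2.64% (31 of 1173), and that of rods 0.762% and 0.907%. Kcnn2 was also lower, within 1.5-fold, in bipolar cells (347 and 272 CPM, -0.35, -0.42 to -0.28) and amacrine cells (455 and 321 CPM, -0.50, -0.63 to -0.38). In rods it was at 8.36 and 8.21 CPM (-0.03, -0.41 to 0.36). The whole-library level that feeds the free-RNA estimate was itself lower, at 163 and 123 CPM.

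**Figure D3:**
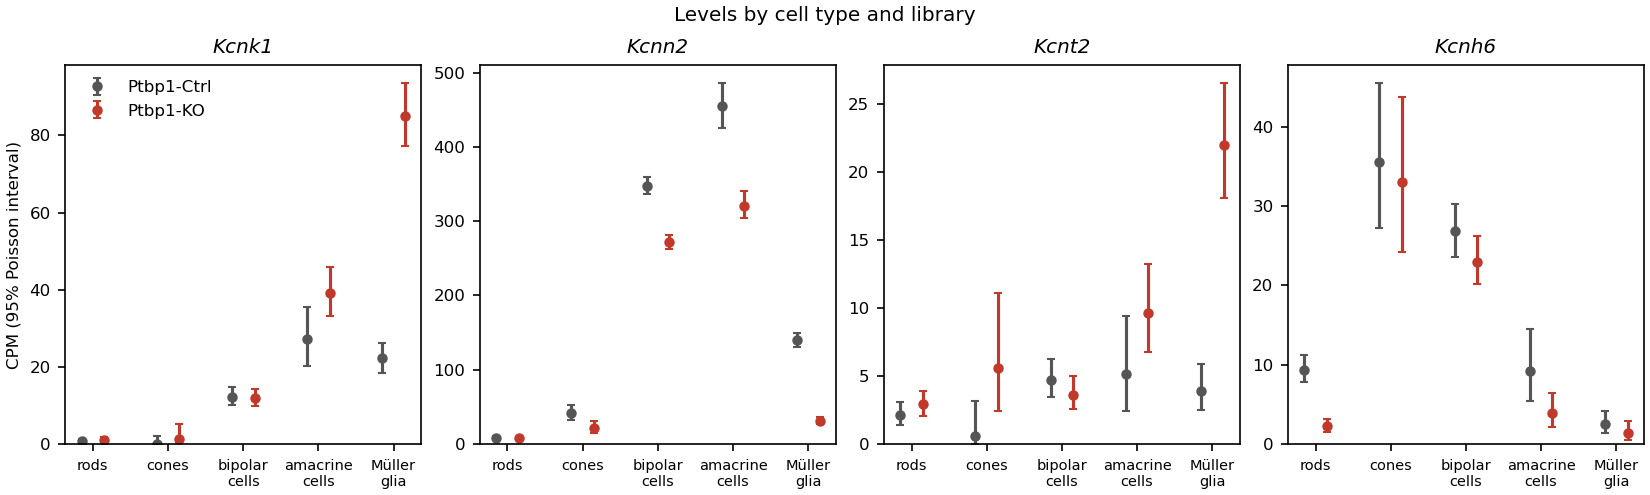
Level (CPM, with 95% Poisson intervals) of Kcnk1, Kcnn2, Kcnt2 and Kcnh6 in 5 cell types, Ptbp1-Ctrl in grey and Ptbp1-KO in red. In Müller glia Kcnk1 went from 22.2 to 85.1 CPM, Kcnn2 from 140 to 31.1 CPM and Kcnt2 from 3.89 to 22.0 CPM, and in rods Kcnh6 went from 9.36 to 2.28 CPM.

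Müller glia fell into 3 deposited clusters, and the Kcnk1 and Kcnn2 differences were present in each. Kcnk1 was at 22.5 and 86.5 CPM in cluster 4, 24.3 and 71.5 CPM in cluster 16 and 17.2 and 77.6 CPM in cluster 22. Kcnn2 was at 131 and 23.3 CPM in cluster 4, 173 and 27.8 CPM in cluster 16 and 204 and 126 CPM in cluster 22. Kcnt2 was at 3.79 and 21.1 CPM in cluster 4 and 7.63 and 18.7 CPM in cluster 22, and in cluster 16 it held 0 and 11 UMIs, at least 5.40-fold higher in Ptbp1-KO against the floor of 3 UMIs in the cluster. Cluster 22 (89 and 54 cells) also held bipolar cell RNA, with Trpm1 at 752 and 862 CPM beside Glul at 6205 and 5725 CPM, and the smaller ratio of Kcnn2 there (-0.70, -1.23 to -0.19) stands beside that.

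The difference of Kcnab1 in Müller glia was smaller. Kcnab1 held 144 and 77 UMIs, 24.4 and 15.1 CPM, a log2 ratio of -0.69 (-1.11 to -0.28), and both levels were below its free-RNA level of 33.9 and 29.0 CPM. The ratio was past 1.5-fold under 4 of 6 alternative settings. It was -0.57 with clusters weighted alike and -0.58 without the cells of highest doublet score. Of the Kcnab1 UMIs, 70 and 26 were in cluster 22, where the level was 134 and 69.6 CPM. In cluster 4 it was at 12.6 and 9.86 CPM, with a log2 ratio of -0.35 (-0.94 to 0.23), an interval that includes 0.

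**Figure D4:**
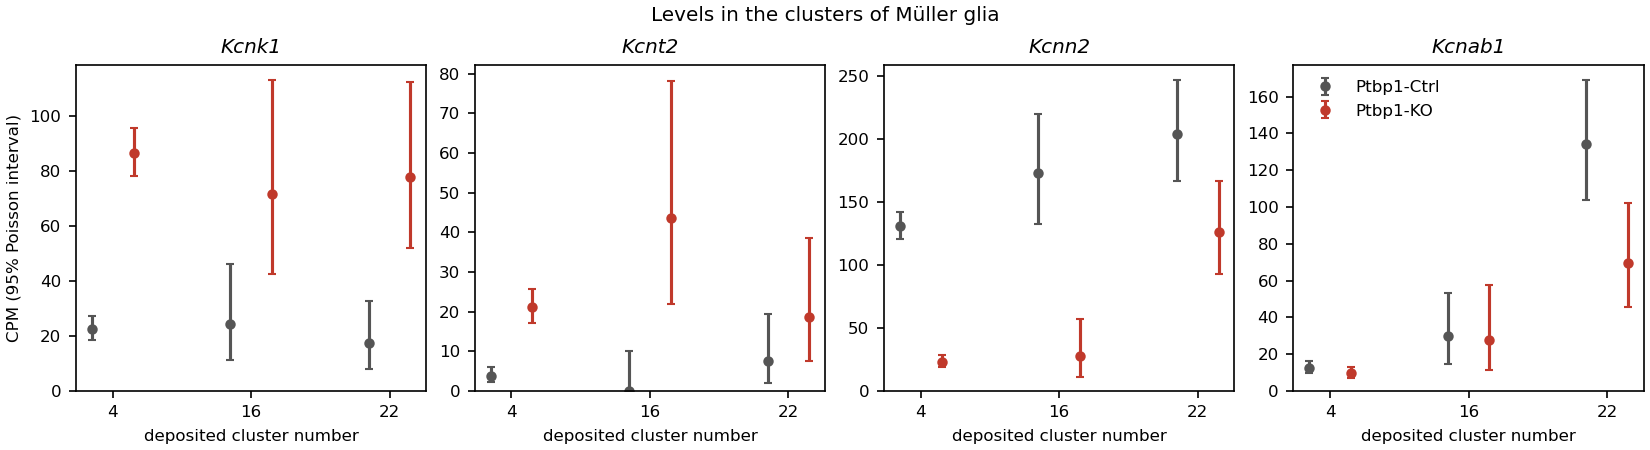
Level (CPM, with 95% Poisson intervals) in the 3 clusters of Müller glia of 4 members past 1.5-fold, Ptbp1-Ctrl in grey and Ptbp1-KO in red. Kcnk1 was higher and Kcnn2 lower in each cluster, and Kcnab1 was highest in cluster 22, at 134 and 69.6 CPM.

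By role, the tandem-pore group of Müller glia, with 13 members of which Kcnk1 alone reached 100 UMIs, summed to 31.2 CPM in the control and 96.2 CPM in the mutant library. The calcium- and sodium-activated group, 8 members, summed to 281 and 167 CPM, with Kcnma1 at 129 and 109 CPM (-0.24, -0.40 to -0.08). The channel-forming voltage-gated group, 16 members, had 5 with at least 100 UMIs and none past 1.5-fold, with log2 ratios from -0.46 to 0.47. Of the auxiliary group, 7 of 16 members had at least 100 UMIs, with a median log2 ratio of -0.05. Kcnip4 (0.44, 0.32 to 0.57) and Kcne1l (0.26, 0.00 to 0.53) stood above 0. Below 0 were Kcnab1 (-0.69), Kcnmb2 (-0.44), Kcnab2 (-0.28), Kcnrg (-0.05) and Kcnmb4 (-0.02). Kcnip4 was at 169 and 230 CPM, beside a free-RNA level of 186 and 177 CPM.

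In rods, 20 members had at least 100 UMIs. Of these 5 were past 1.5-fold higher, against 5.74% of all 11120 genes, and 1 was past 1.5-fold lower, against 0.953%. Their median log2 ratio was 0.27, beside 0.05 over all genes. The single lower gene, Kcnh6, had 122 UMIs in control rods and 33 in mutant rods, 9.36 CPM (7.77 to 11.2) and 2.28 CPM (1.57 to 3.20), a log2 ratio of -2.04 (-2.64 to -1.47). Its free-RNA level was 0.690 and 0.508 CPM. Kcnh6 was lower in each of the 4 rod clusters, with 55 and 23 UMIs in cluster 0, 26 and 1 in cluster 1, 31 and 5 in cluster 2 and 10 and 4 in cluster 3. In cones (-0.11, -0.69 to 0.46) and bipolar cells (-0.22, -0.48 to 0.04) the intervals of Kcnh6 included 0. Amacrine cells held 18 and 15 UMIs, under the minimum.

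The 5 higher genes in rods had their highest level in other types, apart from Kcnd1, which was highest in cones in Ptbp1-Ctrl and in rods in Ptbp1-KO. Kcnc1, a fast channel of high-frequency firing, held 82 and 192 UMIs (6.29 and 13.2 CPM, log2 ratio 1.07, 0.69 to 1.47), against 122 and 135 CPM in amacrine cells. Kcnd1, an A-type channel, held 64 and 123 UMIs (4.91 and 8.49 CPM, 0.79, 0.34 to 1.25). Kcnip4 (20.4 and 34.2 CPM, 0.74), Kcnd2 (49 and 87 UMIs, 0.68) and Kcnh7 (8.28 and 12.8 CPM, 0.62) completed the group. Kcnc1 and Kcnd1 were past 1.5-fold under each of 7 alternative settings, and Kcnip4 under each of the 6 with a value. Kcnd2 was past it under 6 of 7 (lowest 0.58) and Kcnh7 under 4 of 7 (lowest 0.53). Kcnip4 stood below or at its free-RNA level of 27.2 and 33.9 CPM in rods, and Kcnh7 within 1.5-fold of its level of 6.22 and 9.76 CPM, whereas Kcnc1 (1.01 and 1.80 CPM) and Kcnd1 (0.211 and 0.318 CPM) were well above theirs. Beside these differences, the 5 amacrine cell markers, each with UMIs in both libraries, summed to 14.0 and 20.8 CPM in rods and amacrine cells were 4.12% and 6.51% of all cells, and the part of either was not tested. Kcnv2, the silent subunit of rods, differed little, with a log2 ratio of -0.11 (-0.18 to -0.04).

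**Figure D5:**
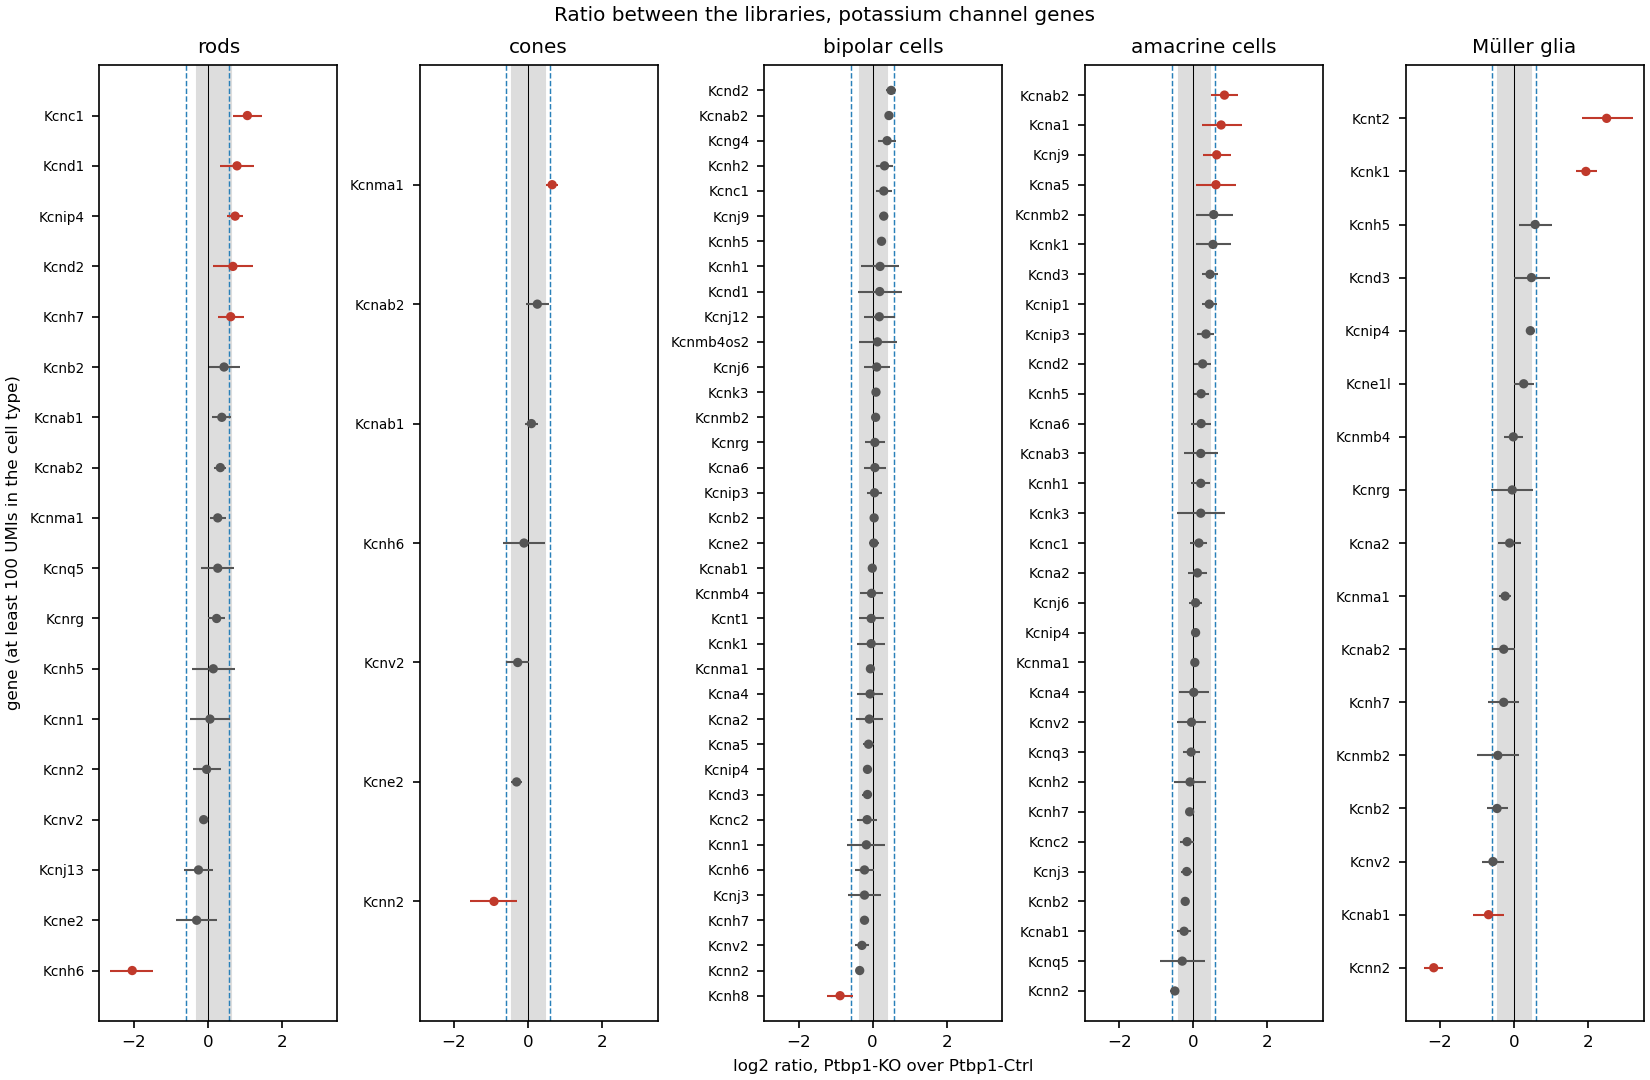
log2 ratio of Ptbp1-KO over Ptbp1-Ctrl (points, with 95% binomial intervals) of members with at least 100 UMIs in each cell type. Grey bands span the 5th to 95th percentile of all genes under the same minimum, dashed lines mark 1.5-fold and red marks members past it. Müller glia hold both the highest ratio (Kcnt2, 2.50) and the lowest (Kcnn2, -2.17), and the 37 members plotted for bipolar cells run from -0.88 (Kcnh8) to 0.50 (Kcnd2).

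In cones, 9 members had at least 100 UMIs. Of these 1 was past 1.5-fold higher, against 2.21% of 5526 genes, and 1 was lower, against 1.86%. Kcnma1 held 543 and 696 UMIs (311 and 488 CPM, log2 ratio 0.65, 0.49 to 0.81), and Kcnn2 held 72 and 31 UMIs (41.3 and 21.7 CPM, -0.92, -1.58 to -0.30). The free-RNA level was 453 and 469 CPM for Kcnma1 and 81.0 and 62.9 CPM for Kcnn2, above 3 of these 4 values. Without the 10% of cones with the most marker RNA of other types the log2 ratios were 0.58 for Kcnma1, just short of 1.5-fold, and -0.93 for Kcnn2, which then had fewer than 100 UMIs. The cone-enriched Kcne2 was at -0.31 (-0.46 to -0.17) and Kcnab1 at 0.09 (-0.09 to 0.26).

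Bipolar cells gave the most measured members and the fewest differences. Of 40 members with at least 100 UMIs, 0 were past 1.5-fold higher (1.95% of 11503 genes were) and 1 was lower (1.32%), and the median log2 ratio was 0.03 beside 0.01 over all genes. The intervals were narrow for the abundant genes, with Kcnma1 at -0.06 (-0.08 to -0.03), Kcnip4 at -0.14 (-0.17 to -0.11) and Kcnb2 at 0.04 (0.00 to 0.08). Kcnh8, the ELK-family gene of cluster 18, was the lower member, with 194 and 110 UMIs (19.8 and 10.7 CPM, -0.88, -1.23 to -0.54). By cluster the difference was uneven, since cluster 9 went from 48 to 6 UMIs (31.4 and 4.28 CPM, -2.88, -4.39 to -1.65) and cluster 18 from 105 to 76 UMIs (174 and 128 CPM, -0.45, -0.89 to -0.01). A single cell held up to 8 UMIs of Kcnh8 in Ptbp1-Ctrl and 5 in Ptbp1-KO.

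In amacrine cells 34 members had at least 100 UMIs, of which 4 were past 1.5-fold higher, against 2.27% of 8651 genes, and 0 were lower, against 1.41%. Their median log2 ratio was 0.13, beside 0.00 over all genes. Kcnab2 held 82 and 289 UMIs (41.9 and 74.9 CPM, 0.84, 0.48 to 1.21). Kcna1, a low-threshold Kv1 channel, held 38 and 126 UMIs (19.4 and 32.7 CPM, 0.75, 0.22 to 1.31), at a free-RNA level of 0.798 and 1.57 CPM. Kcnj9, a G-protein-gated inward rectifier, stood at 37.8 and 58.6 CPM (0.63, 0.25 to 1.03) and Kcna5 at 20.4 and 31.1 CPM (0.61, 0.08 to 1.16). Kcnab2 and Kcna1 were past 1.5-fold under each of 7 alternative settings, Kcnj9 and Kcna5 under 5 of 7. The ratio of Kcnj9 turned to -0.17 after thinning to 1000 UMIs, whereas that of Kcna5 was then 1.43, and weighting the clusters alike gave 0.49 for Kcnj9 and 0.46 for Kcna5. Without the 10% of amacrine cells with the most foreign marker RNA Kcna5 stood at 0.56. The makeup of the class also differed, with 293 and 478 cells in cluster 6, 223 and 214 in cluster 14 and 160 and 253 in cluster 15. Of the genes that separated these clusters, Kcnip1 stood at 0.43 (0.23 to 0.64) and Kcnd3 at 0.45 (0.24 to 0.67), while Kcnb2 stood at -0.22 (-0.32 to -0.13).

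Proteins that bind potassium channels were followed as a list of 21 genes, 20 of which were in the table, chosen by name. Of 8 with at least 100 UMIs in rods, 1 was past 1.5-fold higher (beside 5.74% of all genes) and 0 lower (beside 0.953%). That gene was Dpp6, a subunit of A-type channels, at 7.75 and 12.3 CPM (0.67, 0.31 to 1.04). Of 6 in cones and 12 in amacrine cells, 0 were past it in either direction. Over all genes the shares were 2.21% higher and 1.86% lower in cones, and 2.27% and 1.41% in amacrine cells. Of 17 in bipolar cells 1 was higher (beside 1.95% of all genes) and 0 lower (beside 1.32%). The higher gene was Lrrc55, a gamma subunit of BK channels, at 12.6 and 22.9 CPM (0.86, 0.54 to 1.19). Of 10 in Müller glia 1 was higher (beside 3.06% of all genes) and 1 lower (beside 1.90%). Cntnap2, which gathers Kv1 channels beside nodes of axons, was higher at 220 and 401 CPM (0.87, 0.76 to 0.97). Adam22, a receptor linked to Kv1 channel complexes, was lower at 136 and 82.8 CPM (-0.71, -0.89 to -0.54). The medians of the list were 0.31 in rods, 0.16 in cones, -0.05 in bipolar cells, 0.00 in amacrine cells and -0.17 in Müller glia.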

How the data were processed

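The authors sequenced 1 library per genotype and, per the submitters' processing notes, used Cell Ranger 7.0.1 with mm10 and Seurat 4. The deposited table holds counts (UMIs per gene and cell, not normalized), with cells inside 200 to 5000 genes, 700 to 10000 UMIs and under 20% mitochondrial UMIs by the study's limits. Cell types and clusters are the deposited ones, and 2 other columns of per-cell values were not used. UMIs were summed by library and type, with CPM and exact intervals from SciPy 1.17.1, and the calculation was tested on simulated data. The members, the partner and marker lists and the rule for named genes were chosen with earlier results of these data known. That rule took members past 1.5-fold, those most above the next type or cluster, and Kcnk1 and Kcnn2. Ratios against a type, cluster or library with 0 UMIs used 3 UMIs, and counts of 1 or 2 UMIs were kept. Gene positions are from GENCODE vM21 and promoters from RefSeq. Alternatives were minimums of 50 and 200 UMIs, TMM factors (edgeR 4.0.16), thinning to 1000 UMIs, free-RNA subtraction, clusters weighted alike, leaving out the 5% of cells with the highest doublet score (Scrublet in scanpy 1.11.5 called 0 doublets, so its calls did not work) and, chosen after seeing the data, leaving out the 10% of cells with the most foreign marker RNA or the cell with the most UMIs of a gene. Some members and a marker were counted but are not reported here by name or plotted.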

Additional observations from a re-analysis of the deposited data

Results flagged for a closer look

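Several members were higher in Ptbp1-KO in some cell types and lower in others. These differences between types were not tested, since each genotype had 1 library, and the values are given without an explanation. The log2 ratio of Kcnh7 was 0.62 in rods, -0.22 in bipolar cells and -0.10 in amacrine cells. That of Kcnab1 was 0.38 in rods, -0.25 in amacrine cells and -0.69 in Müller glia. Kcnip4 stood at 0.74 in rods, 0.44 in Müller glia and 0.06 in amacrine cells, against -0.14 in bipolar cells. Kcnma1 stood at 0.27 in rods and 0.65 in cones, against -0.06 in bipolar cells and -0.24 in Müller glia. Its level was under the free-RNA level in rods (23.1 and 27.8 CPM against 42.7 and 48.5 CPM). The same held in Müller glia (129 and 109 CPM against 293 and 253 CPM), and in cones for Ptbp1-Ctrl only (311 and 488 CPM against 453 and 469 CPM).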

How the results depend on the processing

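The median log2 ratio of the members ran over the alternatives from 0.17 to 0.48 in rods (0.27 as reported) and from 0.04 to 0.14 in amacrine cells (0.13). It took either sign in cones (-0.14 to 0.03, -0.11 as reported), bipolar cells (-0.07 to 0.04, 0.03) and Müller glia (-0.28 to 0.03, -0.18). Counts of members past 1.5-fold depended more on the setting. With a minimum of 50 UMIs they were 12 of 33 in rods (11 higher, beside 8.95% of all genes, and 1 lower, beside 1.37%) and 2 of 48 in bipolar cells (1 higher, beside 3.53%, and 1 lower, beside 2.07%). With 200 UMIs they were 3 of 13 in rods (all higher, beside 3.40%), 1 of 6 in cones (higher, beside 1.18%), 2 of 28 in amacrine cells (higher, beside 1.09%) and 3 of 13 in Müller glia (1 higher, beside 2.04%, and 2 lower, beside 1.37%). Thinning to 1000 UMIs gave 1 of 5 in cones (higher, beside 2.34%), 0 of 27 in bipolar cells (beside 1.76% higher and 1.54% lower), 1 of 21 in amacrine cells (higher, beside 1.70%) and 3 of 7 in Müller glia (2 higher, beside 2.87%, and 1 lower, beside 2.41%). After thinning Kcnh8 in bipolar cells stood at -0.66 but fell under 100 UMIs. In amacrine cells Kcna1 then stood at 0.83, with a UMI in 10 and 25 cells, and Kcna5 at 1.43, in 7 and 27 cells. Free-RNA subtraction gave 1 of 7 in cones (lower, beside 11.2%) and 4 of 39 in bipolar cells (lower, beside 3.66%). In cones, leaving out cells of high doublet score gave 1 of 8 (higher, beside 1.93%), and leaving out those of most foreign marker RNA gave 0 of 8 (beside 2.13% higher and 1.90% lower). In both cases Kcnn2 fell under 100 UMIs while its log2 ratio stayed at -1.03 and -0.93 (-0.92 as reported), and Kcnma1 stood at 0.66 and 0.58 (0.65). The log2 ratio of Kcnj9 in amacrine cells turned to -0.17 after thinning and the order of Kcnj13, rods over the next type, to -0.21, and the cause was not tested. Of 159 log2 ratios between genotypes of named genes under alternatives, 152 were the same within counting error, 6 moved and 1 reversed. TMM factors moved the median of all genes in rods from 0.05 to -0.05. They left 3 members higher (beside 3.99%) and 1 lower (beside 1.49%) there, with Kcnd2 at 0.58 and Kcnh7 at 0.53 no longer past 1.5-fold. Clusters could not be weighted alike in cones, which had 1 cluster. Free-RNA subtraction gave no value for Kcnn2 and Kcnab1 in Müller glia, Kcnma1 and Kcnn2 in cones, and Kcnip4 and Kcnk1 in rods. In each case the level of at least 1 library was under the subtracted one. These lost values are not among the 159. Depth limited RGC, HC and 36 members under 100 UMIs. No paired analysis was possible because each genotype had 1 library.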

Other observations

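Some members under the minimum of 100 UMIs in a cell type had ratios whose counting interval excluded 0. They were chosen after their values were seen and have no replicate. In cones, Kcnd3, an A-type channel, held 5 and 17 UMIs (2.87 and 11.9 CPM, log2 ratio 2.06, 0.56 to 3.85), below its free-RNA level of 19.7 and 24.5 CPM in both libraries. Kcnj3 held 36 and 12 UMIs there (20.6 and 8.42 CPM, -1.29, -2.37 to -0.32), at a free-RNA level of 11.2 and 16.1 CPM. In amacrine cells, Kcne2 held 30 and 29 UMIs (15.3 and 7.52 CPM, -1.03, -1.82 to -0.24), below its free-RNA level of 20.1 and 16.3 CPM, and Kcnh6 held 18 and 15 UMIs (9.20 and 3.89 CPM, -1.24, -2.33 to -0.17), at a free-RNA level of 4.94 and 3.32 CPM. In rods, Kcnj3 held 6 and 23 UMIs (0.460 and 1.59 CPM, 1.79, 0.45 to 3.37), below its free-RNA level of 1.05 and 1.66 CPM, and Kcnj6 held 17 and 43 UMIs (1.30 and 2.97 CPM, 1.19, 0.35 to 2.09), at a free-RNA level of 0.796 and 1.49 CPM.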
